A study of Mus musculus with 2 samples.

Results

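The miR-30 family was followed on 2 Agilent mouse miRNA arrays, which compared bone marrow stem and progenitor cells of a WT and a Tif1b KO genotype. Its members were taken by name, as every mature arm of miR-30a to miR-30f with a probe on the array. This gave 12 of the 1247 mouse miRNAs on the array, with 31 of the 3105 miRNA probes and 480 of the 49880 miRNA spots. Total RNA came in both cases from adult mice on a C57/BL6 background, from marrow sorted as c-Kit+ Sca1+ Lineage-. This gate enriches blood-forming stem cells together with early progenitors. Both genotypes carried CreERT, a Cre recombinase that tamoxifen activates. WT cells had the alleles Tif1b w/w and KO cells had Tif1b f/f. How and when the Cre was activated, how many animals gave cells and which promoter drives the transgene are not given in the sources used here. Tif1b (also Trim28 or KAP1) is recruited by zinc finger proteins and keeps retroelements and other loci silent. No probe on a miRNA array measures its messenger RNA, so its loss is not checked here.

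There was 1 array for each genotype, so every difference describes these arrays, no test between genotypes was possible, and the errors given are technical. In such bulk RNA, fewer cells of a type and less RNA per cell cannot be told apart. Spots well above background numbered 3308 for WT and 2510 for KO, and the number of arrays limits the precision. A probe was counted as measured when over 50% of its spots, leaving out outlier spots, were marked well above background by the scanner software. By this rule 100 miRNAs were measured on WT and 78 on KO. To scale the arrays, the 75th percentile of the signals of 113 probes, those measured both times, was taken as the unit. It was 487 on WT and 213 on KO.

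A miRNA acts by pairing its seed, bases 2 to 8, with sites in messenger RNAs, which are then repressed. The 5p arms of the miR-30 family share their seed and are encoded in 3 clusters of precursors, Mir30a with Mir30c-2, Mir30b with Mir30d, and Mir30e with Mir30c-1, so that miR-30c-5p has a pair of source loci. Human members are known to repress the autophagy protein beclin, the sumoylation enzyme UBC9 and, in B cells, the transcription factor PRDM1. The 5p arm is known as the main product of these hairpins, and the 3p arm as the less abundant one.

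The mature 5p sequences are shown because they show how little separates the members. They come from RefSeq (GRCm38.p6), which matched 8 of the 12 arms by name, and the capitals mark the seed. miR-30f and miR-384-5p stand beside them, the first for its name and the second as the other miRNA on the array with the same seed.
miR-30a-5p: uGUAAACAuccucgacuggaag
miR-30c-5p: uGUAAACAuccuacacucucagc
miR-30e-5p: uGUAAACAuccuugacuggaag
miR-384-5p: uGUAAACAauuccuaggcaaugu
miR-30f: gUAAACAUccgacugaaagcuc
miR-30a-5p and miR-30e-5p were identical at 21 of 22 bases and differed at base 13, while miR-30a-5p and miR-30c-5p were identical at 17 of 22. The seed of miR-30f is shifted by a base from that of the others, so it is a member by name and not by seed. miR-30a-5p lies at chr1:23272274-23272295 on the plus strand. Its cluster partner Mir30c-2 lies 19361 bases downstream and encodes miR-30c-5p at chr1:23291714-23291736. The other copy of miR-30c-5p lies at chr4:120769584-120769606 on the minus strand, in Mir30c-1. The Mir30c-1 hairpin is separated by 2983 bases from that of Mir30e, whose miR-30e-5p lies at chr4:120772660-120772681 on the same strand. Both hairpins overlap the protein-coding gene Nfyc in the annotation, which encodes a subunit of the transcription factor NF-Y. The hairpins Mir30a, Mir30c-2, Mir30b and Mir30d overlap no other annotated gene, and Mir30b and Mir30d are on chromosome 15. miR-30f lies at chr4:120772621-120772642 on the plus strand, opposite Mir30e, and its whole complement of 22 bases is part of the Mir30e hairpin.

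The brightest probes of miR-30a-5p and miR-30e-5p pair with bases 6 to 22 of the miRNA and that of miR-30c-5p with bases 6 to 23, so most of the shared seed lies outside them and the probes show which bases can tell members apart. The brightest probe of each 5p arm is printed as deposited, in the first group with capitals at the bases that differ.
miR-30a-5p probe: cttccagtcGAggatgt
miR-30d-5p probe: cttccagtcGGgga
miR-30e-5p probe: cttccagtcAAggatgt
In the other group the capitals mark what lies outside the 13 bases that both probes share at their 3′ end.
miR-30b-5p probe: AGCTgagtgtaggatgt
miR-30c-5p probe: GCTGAgagtgtaggatgt
Counted from the 5′ end of the probe, the change from the miR-30a-5p probe to the miR-30e-5p probe is G10A, and the change to the miR-30d-5p probe is A11G. Between the miR-30d-5p and the miR-30e-5p probe the changes are G10A and G11A over the 14 bases they share. The array holds no sample with a single member of the family, so signal that one member gives on the probe of a near-identical one cannot be told apart from its own.

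Of the 12 arms, 1 was measured on both arrays, 3 on the WT array only and 8 on neither. mmu-miR-30c-5p was measured on both, and mmu-miR-30a-5p, mmu-miR-30d-5p and mmu-miR-30e-5p on WT only. mmu-miR-30b-5p, all 6 3p arms and miR-30f were measured on neither. No arm was measured on the KO array only. Over all miRNAs measured on the WT array, 28.0% were not measured on the KO array (28 of 100), against 3 of the 4 miR-30 arms. The detection limits differed, so this count depends on level. The lowest measured signal on KO was 21.1, which equals 48.2 on the WT array after scaling, whereas the lowest measured on WT was 17.7. Among miRNAs whose brightest WT probe lay above 48.2, 9.72% were not measured on KO (7 of 72), and miR-30d-5p and miR-30e-5p are among those 7. miR-30d-5p is in that class by less than its spot error, at 48.3 ± 3.73 (standard error over spots) against 48.2. Of the miRNAs at or below it, 21 of 28 were not measured on KO, and miR-30a-5p is among these.

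miR-30c-5p, known in rodent heart to repress connective tissue growth factor, had signals from 2.79 to 118 over 20 spots of its brightest probe on the WT array, with a median of 59.2 and a mean of 55.2 ± 29.9 (SD, n = 20 spots). On the KO array the same probe ran from 0.185 to 44.5 over 20 spots, with a median of 26.6 and a mean of 23.7 ± 14.3 (SD, n = 20 spots). Before scaling the KO spot was dimmer than the WT spot at 18 of 20 positions, and after scaling at 10 of 20. Over the 113 probes measured on both arrays the medians of this share were 94.7% before and 20.0% after scaling, so a dimmer KO spot before scaling is the rule on these arrays. The ranges of the arrays overlapped. Well above background were 17 of 20 spots on WT and 13 of 20 on KO. Before scaling the KO signal was 0.430 of the WT signal, against a median of 0.561 over all 113 probes measured on both arrays. After scaling, the KO minus WT difference of miR-30c-5p was -0.03 on the log2 scale, with a standard error over spots of 0.26. The median of all 72 miRNAs measured on both arrays was 0.30, with 13.9% at least 2-fold higher on KO and 13.9% at least 2-fold lower. miR-30c-5p was in neither class. Relative to the median miRNA it was at -0.33, and it ranked 27 of 72 from the lowest. Its neighbours in that order, miR-425-5p at -0.04 and miR-3096b-3p at -0.01, lay within its spot error. Pairing the spots by position in place of averaging them gave -0.79 relative to the median. Normexp background correction, which added an offset of 50 to every signal, gave 0.06. That offset is close to the WT mean of this probe and above its KO mean. Subtracting the negative control mean, a setting added after seeing the data, gave -0.53. The sign relative to the median thus turned with normexp and not with the other background setting.

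miR-30e-5p, which is encoded in the Nfyc gene beside one of the copies of miR-30c, had the brightest probe of the family on the WT array. Its WT spots ran from -1.68 to 131, with a median of 85.5 and a mean of 71.8 ± 38.4 (SD, n = 20 spots), and 17 of 20 were well above background. Its KO spots ran from -4.10 to 39.1, with a median of 20.6 and a mean of 19.6 ± 11.2 (SD, n = 20 spots), and 8 of 20 were well above background. After scaling the KO spot was dimmer at 17 of 20 positions. Since the probe was not measured on KO, the comparison has only a bound. After scaling, the WT mean was 1.49-fold the lowest signal measured on KO. This bound does not allow for spot error and is not a minimum over measures. By the software's total gene signal, described below, WT was 1.15-fold higher after scaling.

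miR-30d-5p, known in human melanoma to repress the glycosyltransferase GALNT7, was measured with probes of 13 and 14 bases. On the WT array all 18 spots of the 14-base probe were well above background, from 23.5 to 79.4, with a median of 48.5 and a mean of 48.3 ± 15.8 (SD, n = 18 spots). On the KO array 9 of 20 spots were, and the signals ran from 1.93 to 27.2 with a median of 16.1 and a mean of 15.8 ± 8.83 (SD, n = 20 spots). After scaling the KO spot was dimmer at 14 of 18 positions. The other probe had means of 25.4 on WT and 12.1 on KO, with 12 of 20 and 0 of 18 spots well above background. The bound for miR-30d-5p was at least 1.00-fold higher on WT after scaling, which leaves the size of its difference undetermined at this detection limit.

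miR-30a-5p, the arm known in human cells to repress beclin, ran from 15.3 to 46.3 on the WT array, with a median of 31.2 and a mean of 30.7 ± 9.79 (SD, n = 13 spots). On the KO array it ran from 0.758 to 16.5, with a median of 11.6 and a mean of 9.61 ± 5.02 (SD, n = 13 spots). After scaling the KO spot was dimmer at 10 of 13 positions. Of the spots, 11 of 13 spots were well above background on WT and 0 of 13 on KO. With this scaling no fold can be given, because its WT signal lay below the signal that the KO array could measure after scaling. Its other probes had no spot well above background on either array.

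miR-30b-5p, the cluster partner of miR-30d, was not measured on either array by the 50% rule. Its brightest probe ran from 2.81 to 54.5 on WT with a median of 17.6 and a mean of 20.6 ± 15.7 (SD, n = 20 spots), and 7 of 20 spots were well above background. On KO it ran from 0.916 to 18.8 with a median of 6.23 and a mean of 7.66 ± 5.37 (SD, n = 19 spots), and 0 of 19 spots were. After scaling the KO spot was dimmer at 8 of 19 positions. Its KO mean lay near the KO negative control mean of 6.99, which was 6.62 on WT. Scaling raises such background signal on KO relative to WT, so this count cannot show whether miR-30b-5p differed.

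The arrays' negative control spots, which match no mouse miRNA, show what signal arises without a target. They had a mean of 6.62 ± 3.88 (SD) over 983 spots on WT and of 6.99 ± 4.0 (SD) over 973 spots on KO, with 95th percentiles of 13.3 and 13.7. Above that percentile lay 13 of 13 WT spots and 2 of 13 KO spots of miR-30a-5p. For miR-30b-5p it was 12 of 20 on WT and 4 of 19 on KO. For miR-30c-5p it was 18 of 20 and 15 of 20, for miR-30d-5p 18 of 18 and 11 of 20, and for miR-30e-5p 17 of 20 and 14 of 20. Spots of miR-30c-5p, miR-30d-5p and miR-30e-5p on the KO array thus exceeded this control level in over 50% of cases, and those of miR-30a-5p and miR-30b-5p did not. In the 3p arms and miR-30f no spot was well above background on either array. Among these the highest probe means were 8.73 on WT and 7.65 on KO, both of miR-30b-3p, and miR-30e-3p reached 6.69 on WT and 0.425 on KO. These lie within the range of the negative control spots. Over the 2884 probes of miRNAs measured on neither array the median was lower, at -2.15 on WT and -2.46 on KO, with 95th percentiles of 5.61 and 5.43. By that comparison the named WT means of miR-30b-3p and miR-30e-3p and the KO mean of miR-30b-3p lay above the percentile, so whether these arms gave signal depends on the background taken. These are the highest means of the arms, and some of the 2884 probes lie above their own 95th percentile by definition. The other probe of miR-30e-3p had a mean of -0.431 on WT, and the probes of miR-30b-3p ran from 0.518 to 8.73 there. miR-384-5p was not measured on either array.

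Spot signals also differed by position. Over probes measured on both arrays, the spots in the last 128 of the 384 array rows had a median of 0.550 of the signal in the first 128 rows on WT (109 probes) and 0.650 on KO (112 probes). In miR-30e-5p the WT medians of the first, middle and last 128 rows were 97.6, 86.7 and 41.3, and the KO medians were 32.1, 20.6 and 11.5. In miR-30c-5p they were 72.3, 56.9 and 17.1 on WT, and 31.6, 24.7 and 4.60 on KO. These are signals before scaling. After scaling, KO over WT was 0.998, 0.991 and 0.615 for miR-30c-5p from the first to the last rows. For miR-30d-5p it was 1.07, 0.970 and 0.323, and for miR-30e-5p 0.753, 0.544 and 0.638. The scaled medians of miR-30c-5p and miR-30d-5p were thus close to each other between the arrays except in the last 128 rows, while those of miR-30e-5p were lower on KO in all of these row groups. In the last rows the KO medians of miR-30c-5p (4.60) and miR-30d-5p (5.16) lay below the KO negative control mean of 6.99. There 1 of 5 and 0 of 7 KO spots were well above background, so those ratios rest on signal at background level. For miR-30e-5p, 1 of 7 KO spots in the middle rows and 1 of 6 in the last rows were well above background. Its KO median in the last rows (11.5) lay below the negative control 95th percentile of 13.7. In the last rows miR-30a-5p, with 1 spot, was at 0.113 and miR-30b-5p at 1.41. With only the first 192 rows, an alternative chosen after seeing the data that also uses fewer spots and its own scaling, miR-30c-5p, miR-30d-5p and miR-30e-5p were measured on both arrays, at -0.30, -0.45 and -0.82 relative to the median of 76 miRNAs, and miR-30a-5p and miR-30b-5p on WT only. The part of the gradient in this was not tested. In the other rows 0 arms were measured on both arrays and 4 on WT only.

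**Figure D1:**
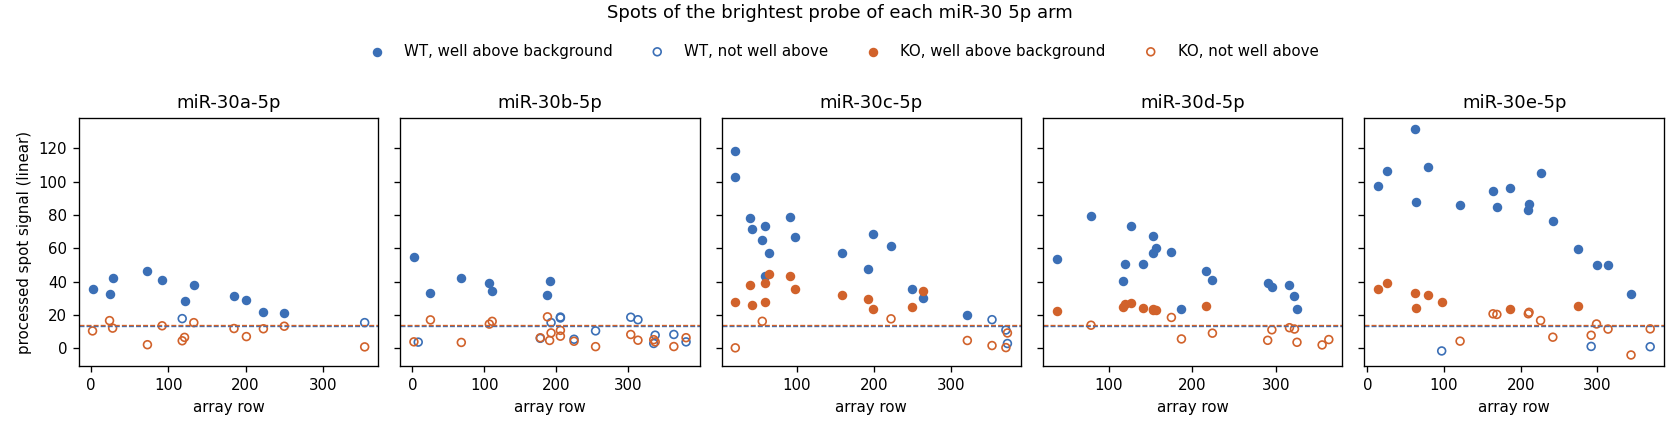
Processed signal on a linear scale (vertical axis) against array row (horizontal axis) for every spot, outlier spots left out, of the brightest probe of the 5 miR-30 5p arms. Filled points were marked well above background and open points were not, blue is WT and orange is KO, and the dashed lines are the 95th percentiles of the negative control spots (13.3 and 13.7). Signals are not scaled: WT points sit above KO points over most rows, and signals are lower towards the last rows.

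The scanner software's own summary over all probes of a miRNA, the total gene signal, has its own detection call and error, and by it 3 miR-30 arms were detected on both arrays. miR-30c-5p had a total gene signal of 15.6 ± 2.08 (software error) on WT and 6.71 ± 1.45 on KO, and miR-30d-5p had 20.8 ± 2.30 and 4.47 ± 1.33. miR-30e-5p had 20.3 ± 2.54 on WT and 5.55 ± 1.38 on KO. miR-30a-5p at 5.65 ± 0.931 and miR-30b-5p at 5.83 ± 1.32 were detected on WT only, and the other 7 arms on neither. In all, 28.3% of miRNAs detected on WT were not detected on KO (34 of 120).

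Scaled in the same way, the log2 difference KO minus WT of total gene signal was 0.45 ± 0.37 for miR-30c-5p, -0.20 ± 0.40 for miR-30e-5p and -0.55 ± 0.46 for miR-30d-5p. The median of the 86 miRNAs detected on both arrays was 0.58, with 33.7% at least 2-fold higher on KO, 5.81% at least 2-fold lower and 22.1% below 0. Relative to that median the differences were -0.13 for miR-30c-5p, -0.78 for miR-30e-5p and -1.13 for miR-30d-5p, and the ranks from the lowest were 39, 16 and 12 of 86. These 3 lay below the median miRNA, miR-30c-5p by less than its software error and the other 2 by more. None was at least 2-fold lower before the median was taken off.

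**Figure D2:**
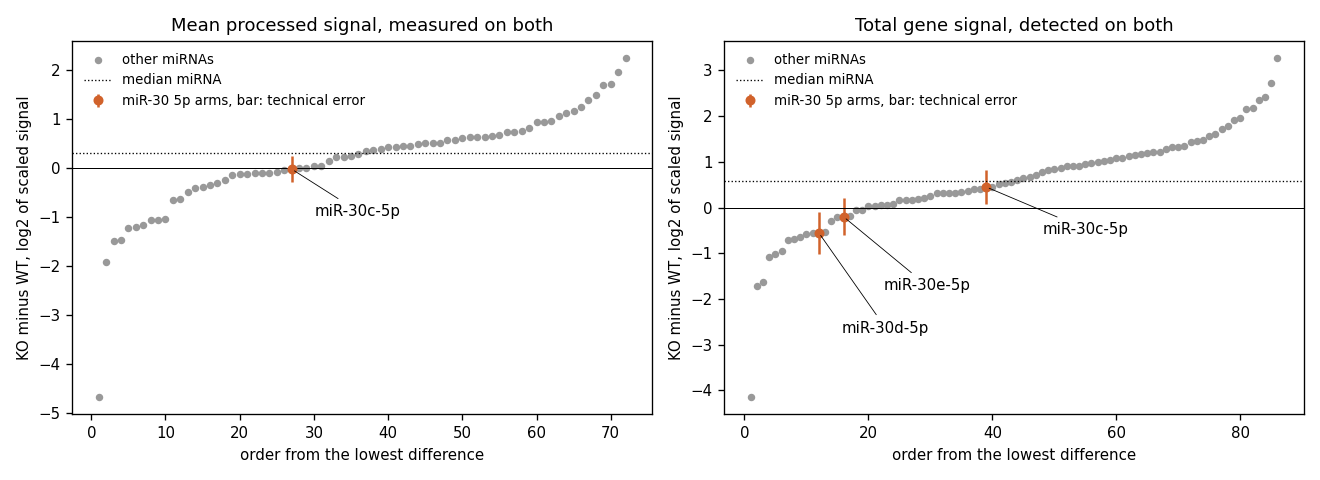
KO minus WT differences in log2 of scaled signal (vertical axis) for miRNAs ordered from the lowest (horizontal axis), from mean processed signal over 72 miRNAs on the left and from total gene signal over 86 on the right. Orange points are miR-30 5p arms with 1 standard error over spots (left) or 1 software error (right), the dotted line is the median miRNA (0.30 and 0.58), and miR-30d-5p and miR-30e-5p on the right lie towards the low end.

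A share of an array's summed signal needs no scaling factor, but it is a share of signal and not of molecules, since probes differ in brightness. In total gene signal the 5 miR-30 5p arms made up 0.403 ± 0.0256% (software error) of the WT array and 0.213 ± 0.0306% of the KO array, a KO over WT ratio of 0.529 ± 0.0830. Arms not detected on an array entered its sum as 0, so this ratio is in part set by the detection of miR-30a-5p and miR-30b-5p on WT only, and its error does not cover that. miR-30c-5p had shares of 0.0924% on WT and 0.0856% on KO, which differed by less than their errors of 0.0123 and 0.0185. miR-30d-5p had 0.123 ± 0.0136% on WT and 0.0570 ± 0.0169% on KO. miR-30e-5p had 0.120 ± 0.0150% on WT and 0.0708 ± 0.0176% on KO. miR-30a-5p with 0.0334% and miR-30b-5p with 0.0345% were detected on WT only. Over the 3 arms detected on both arrays alone, the share was 0.336% on WT and 0.213% on KO, a ratio of 0.636.

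The size of the share ratio depended on what was summed. From the mean of the measured probes it was 0.258, where the KO share rests on miR-30c-5p alone. From all probes with negative means set to 0 it was 0.737, with 0.427% on WT and 0.315% on KO. The ratio was below 1 with each of these sums. Which arm had the lower ratio also depended on the sum. In total gene signal miR-30d-5p was at 0.463 and miR-30e-5p at 0.590. From all probes they were at 0.784 and 0.571.

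**Figure D3:**
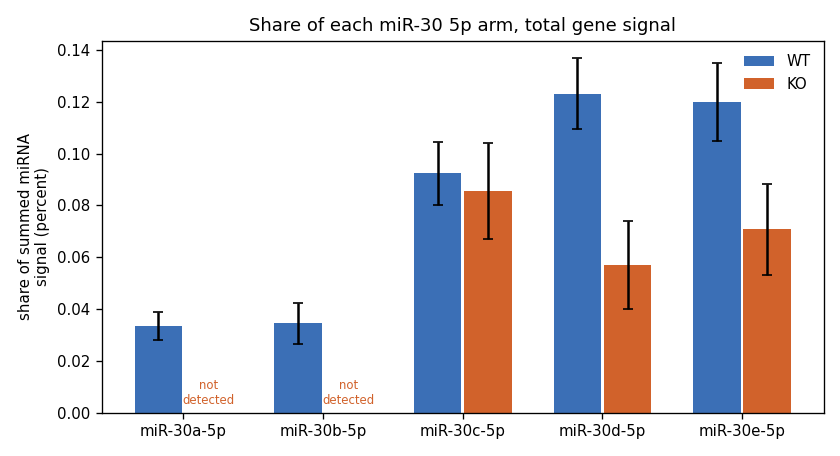
Share of the summed miRNA total gene signal in percent (vertical axis, from 0) for each miR-30 5p arm (horizontal axis) on the WT array (blue) and the KO array (orange), with bars of 1 software error. miR-30c-5p differs little between the arrays, miR-30d-5p and miR-30e-5p have smaller shares on KO, and miR-30a-5p and miR-30b-5p were not detected there.

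By cluster, leaving out miR-30c-5p with its pair of source loci, each of the 3 clusters had 1 arm measured on WT only and none measured on both. This arm was miR-30a-5p of 3 in the Mir30a and Mir30c-2 cluster, miR-30d-5p of 4 in the Mir30b and Mir30d cluster, and miR-30e-5p of 3 in the Mir30e and Mir30c-1 cluster. The signal of miR-30c-5p cannot be assigned to either locus, since both encode the same mature sequence, and the 3p arms that differ between them, miR-30c-1-3p and miR-30c-2-3p, had no spot well above background.

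Other families of similar kind were placed beside the miR-30 family to show where it lies, with no test of the difference. In let-7 with miR-98, a family that limits growth and self-renewal genes, the share of total gene signal was 18.3% on WT and 26.8% on KO, a ratio of 1.46. The 8 of 9 members measured on both had a median of 0.25 relative to the median miRNA. In miR-29, known to repress collagens and DNA methyltransferases, the shares were 1.71% and 0.642%, a ratio of 0.376. Its miR-29a-3p and miR-29b-3p were at -1.38 and -1.78 relative to the median. In the miR-15 and miR-16 family with miR-322, which represses cell cycle and survival genes, the shares were 6.20% and 4.79%, a ratio of 0.772, and the 4 of 6 members measured on both had a median of -0.51. In these sums too, members not detected on an array entered as 0.

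The labelled cell fraction was set against marker miRNAs. Of 11 stem and early progenitor miRNAs 6 were measured on both arrays, with a median of 0.75 relative to the median miRNA, and miR-193b-3p had the highest difference of all 72 miRNAs at 2.25. Members of the list differed in direction: among these 6, miR-126-3p lay below the median miRNA, at -0.27. By total gene signal miR-99a-5p (8.96) and miR-125b-5p (5.21) were detected on WT only, and miR-125a-5p (5.83) on KO only. The summed total gene signal of the list was 260 on WT and 221 on the dimmer KO array, which is a share of 1.54% on WT and 2.82% on KO. Of 7 granulocyte and monocyte miRNAs 5 were measured on both, and their sum was 1902 on WT and 168 on KO, a share of 11.2% on WT and 2.14% on KO. miR-223-3p, which is abundant in granulocytes, had the lowest difference of all at -4.68, with 1267 on WT and 22.4 on KO. Of 6 lymphoid miRNAs 3 were measured on WT only and none on KO, with sums of 28.5 and 6.33, or shares of 0.168% and 0.0808%. The KO sum was that of miR-181d-5p alone. In total gene signal miR-181d-5p was detected on both arrays and lay above the median miRNA, at 0.61. The 2 erythroid and the 6 stromal, endothelial wall and muscle miRNAs were all listed at the floor of 0.1 on both arrays. The granulocyte and monocyte signal and the miR-30 shares were thus both lower on KO, and the part of the former in the latter was not tested. Leaving that list out of the summed signal gave miR-30 shares of 0.455% and 0.218%, a ratio of 0.480. Only the summed signal changed, and the list was a larger part of it on WT. The ratio therefore had to fall, and this value cannot show the part of the list in the miR-30 shares.

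**Figure D4:**
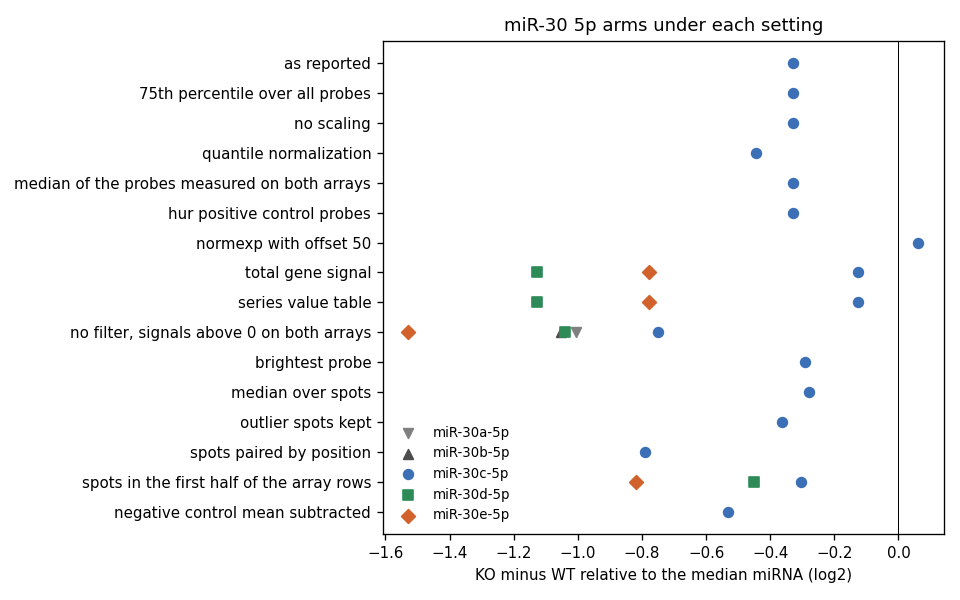
KO minus WT difference relative to the median miRNA in log2 (horizontal axis) of each miR-30 5p arm that has a value, by setting (vertical axis), with no error bars. miR-30c-5p lies between -0.79 and 0.06, above 0 only with normexp, and where miR-30d-5p and miR-30e-5p have a value it is below 0. Settings that change only a single scaling factor give the same value by construction.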

How the data were processed

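Per the labels' protocols, 100 ng of total RNA a sample was labelled with Cy3. The deposited files give each spot's linear intensity. Per the submitters' processing notes, the software was Agilent Feature Extraction, version 10.7.3. Per the file headers, the processed signal had an additive spatial trend subtracted, with further background correction off and no normalization between arrays. The deposited value table held total gene signal intensity, equal within 0.1% to that of the array files in 1268 of 1268 rows, with a floor of 0.1. All samples were assigned from the labels.

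Processed signals were averaged over a probe's spots without outliers, and scaled by the percentile named above (KO over WT 0.437). Total gene signals were scaled on the miRNAs detected on both arrays. Where several probes of a miRNA were measured both times, the median of their differences was used. For a miRNA measured on 1 array, the bound divides its signal by the dim probe's own signal or, if higher, the lowest signal measured on that dim array. Where this came out below 1, no bound was given. Settings with another filter kept the main scaling factor. A value counted as changed by a setting when it moved by more than its standard error over spots (1.5-fold for counts and shares).

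Named miRNAs are all miR-30 arms, others with their seed, members of the comparison families and marker lists, the neighbours of miR-30c-5p in the order of differences, and the highest and lowest difference. Members and lists were chosen with earlier results of these data known. Other settings covered scaling, background, filter and summaries (14), and 3 more were added after seeing the data. The procedure was run on simulated data with known changes. That simulation had no row gradient and no background mean like that of the negative control spots, so it does not cover these limits of dim probes. Sequences and mature coordinates are RefSeq's (GRCm38.p6). Normexp was run with an offset of 50 in limma 3.58.1 and R 4.3.3. The rest used Python 3.11.15 with pandas 2.3.3 and numpy 2.4.6.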

Additional observations from a re-analysis of the deposited data

How the results depend on the processing

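No paired analysis of samples was possible, because each genotype had 1 array. The median difference of the measured miR-30 arms relative to the median miRNA (-0.33) was 0.062 with normexp, -0.78 with total gene signal and with the deposited value table, -1.04 with no filter and -0.79 with spots paired by position. The number of arms measured on both arrays (1) was 3 with total gene signal, the value table and the first 192 rows, and 0 with the stricter filter (80% of spots) and the other rows. The KO over WT share ratio (0.258) was 0.529 with total gene signal and with the value table, 0.737 with no filter, 0.623 in the first 192 rows, and 0 with the stricter filter and in the other rows, where no arm was measured on KO. The cause of these changes was not tested, except that settings with more or fewer measured arms also summarise other arms. Relative to the median, miR-30c-5p was below 0 in 14 of 15 alternatives (-0.79 to 0.06). This count overstates how many are independent. Settings that changed only a single scaling factor repeated -0.33 by construction, and total gene signal and the value table hold the same data. The scaled difference of miR-30c-5p ran from -1.22 with no scaling to 0.52 with normexp, below 0 in 9 of 15. The bound of miR-30e-5p ran from 1.10 to 3.41 over 11 alternatives and that of miR-30d-5p from 1.00 to 2.29 over 6, both highest with no scaling. A bound below 1 was not given, so these ranges leave out settings where it fell below 1 and cannot show its direction. miR-30a-5p had a bound of 1.46 with no scaling, 1.36 with the 75th percentile over all probes and 1.15 with scaling on positive control probes. The number of arms measured on WT only was 2 to 4 over 8 alternatives. Signal over background limits every member: the KO array measured nothing below 21.1, and most KO spots of miR-30d-5p and miR-30e-5p were not well above background.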

Other observations

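The probe coordinates that the array files carry were compared with those expected from RefSeq's mature miRNAs (GRCm38.p6), within 1 base. On the plus strand 1402 of 1402 probes matched. On the minus strand 0 of 1035 matched, and 978 lay at the position mirrored within the hairpin. Among the miR-30 probes all 2 of miR-30e-5p, all 2 of miR-30e-3p and all 4 of miR-30c-1-3p were mirrored in this way, while all 3 of miR-30a-5p and all 2 of miR-30f matched. The files' coordinates of minus-strand miRNAs were therefore not used here.

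miR-30f and miR-30e-3p come from opposite strands of the same hairpin region, and 19 of the 22 bases of miR-30f are complementary to miR-30e-3p. The probes of miR-30f had WT means of -5.28 and -3.87 and KO means of -5.26 and -5.67, below those of the negative control spots on both arrays.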
